A study of Mus musculus with 28 samples.

Results

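Endothelial cells sorted from mouse brains with lung cancer metastases were compared, gene by gene, with endothelial cells sorted from brains without a tumor. The comparison takes the 5 RNA-seq libraries titled lung and CD31 against the 5 titled healthy and CD31, 10 of the 28 libraries in the series, and the titles alone chose them. Brain metastases (BrM) came from Sv2T3-BrM1, a lung cancer line that homes to the brain and was injected into the heart. As this is 1 line, the values hold for metastases of that line. The mice were PDGFRβ-CreERT2; Rosa-tdTomato animals given 2 mg of tamoxifen a day for 5 days, which marks cells that express PDGFRβ. The protocols state this once for the whole series and describe no separate treatment for the non-tumor mice. The sort took CD31+ cells that lacked CD45, CD11B and EPCAM, so the tdTomato mark did not select them. 2 of the 5 lung libraries carry 2 mouse numbers each (55169-70 and 56195-56520) and count as 1 sample each. Age, sex, strain and time after injection are not given in the sources used here. 5 CD31 libraries of breast BrM (PyMT-BrM3 cells, handled the same way) were fitted together with these 10, so they share the estimate of spread behind each call, and they serve to test whether a value in lung BrM differs from that in another tumor.

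Brain endothelial cells form the blood-brain barrier. They are joined by tight junctions, carry nutrient transporters and efflux pumps, hold few caveolae and depend on Wnt signals from the surrounding tissue. Endothelial cells also sprout in response to VEGF, lay down basement membrane, and answer interferon by inducing antiviral genes and antigen presentation through MHC class I. CD31, encoded by Pecam1, is the adhesion molecule that marked them here.

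Promoters are shown for 3 genes that stand for the list with the most genes that fell, the interferon response genes, and for the mitosis genes, whose median rise was the largest among the lists of endothelial genes and cell processes. Each run is the 250 bases before the RefSeq start site (build GRCm38.p6), read along the gene's strand. Ifit1 and Gbp5 encode interferon-induced antiviral proteins, and capitals mark the motif GAAA, any 2 bases, GAAA, or its reverse complement, the core of the element bound by interferon-activated factors. Ccnb2 encodes the mitotic cyclin B2, and capitals mark CCAAT or its reverse complement, the box common in promoters of mitotic genes. No match overlaps another.
Ifit1, chr19:34640639-34640888, plus strand: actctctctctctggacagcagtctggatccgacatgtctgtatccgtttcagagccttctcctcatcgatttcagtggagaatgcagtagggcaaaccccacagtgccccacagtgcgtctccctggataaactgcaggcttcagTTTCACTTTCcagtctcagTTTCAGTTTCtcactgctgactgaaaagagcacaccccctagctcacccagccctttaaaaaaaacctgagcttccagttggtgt
Gbp5, chr3:142496684-142496933, plus strand: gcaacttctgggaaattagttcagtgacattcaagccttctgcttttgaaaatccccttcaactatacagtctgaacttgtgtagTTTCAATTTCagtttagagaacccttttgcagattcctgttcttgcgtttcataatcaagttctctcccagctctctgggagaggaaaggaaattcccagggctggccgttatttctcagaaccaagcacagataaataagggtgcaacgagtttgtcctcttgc
Ccnb2, chr9:70421555-70421804, minus strand: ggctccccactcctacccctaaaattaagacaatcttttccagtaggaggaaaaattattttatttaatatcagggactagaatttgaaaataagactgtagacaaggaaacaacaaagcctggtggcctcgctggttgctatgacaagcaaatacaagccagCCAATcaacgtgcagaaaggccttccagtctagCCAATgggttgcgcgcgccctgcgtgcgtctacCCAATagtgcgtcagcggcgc
The Ifit1 promoter holds 2 matches, starting 104 and 85 bases before the start site, and the Gbp5 promoter holds 1. The Ccnb2 promoter holds 3 CCAAT boxes, at 87, 54 and 21 bases before the start site. Of the 39 promoters listed for 32 interferon response genes, 17 (43.6%) held the GAAA motif on either strand, against 2.98% of all 32851 promoters in the table. CCAAT was found in 21 of 26 promoters (80.8%) of 25 mitosis genes, against 33.8% of all promoters. Ifih1 and Ifit2, interferon genes that also fell, have listed promoters with no match to these letters in this window.

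The libraries held 12.9 M to 18.1 M counts in lung BrM and 17.0 M to 20.8 M in non-tumor brain. Genes with a count numbered 12601 (mouse 56195) to 19464 in lung BrM and 17968 to 19777 in non-tumor brain. Levels are in CPM, counts scaled to the library total after TMM normalisation. They are listed below in the order of mice 53680, 54132, 54135, 56727 and 56740 for non-tumor brain and 51435, 51697, 54957, 55169 and 56195 for lung BrM. Log2 differences are lung BrM minus non-tumor with their standard error, and calls rest on edgeR's quasi-likelihood test at a Benjamini-Hochberg adjusted p below 0.05. The title and the cell type label of mouse 54135 name opposite sorts. Its library was grouped by the title. Its endothelial genes summed to 38200 CPM, against 37400 to 38100 CPM in the other non-tumor libraries. Its pericyte markers summed to 17.7 CPM, against 24.4 to 47.6 CPM in the others. Where the label places mouse 54135 below, its library titled PDGFRb stands among the endothelial ones instead.

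The sort held endothelial RNA in every library. Pecam1 stood at 1361, 1328, 1307, 1381 and 1295 CPM in non-tumor brain and 837, 597, 1075, 1247 and 893 CPM in lung BrM. All 5 lung libraries lay below all non-tumor libraries (log2 difference -0.52 ± 0.17, adjusted p = 0.028). Cldn5, the main claudin of the barrier, stood at 2325, 2879, 2101, 2562 and 2634 CPM in non-tumor brain and 1896, 1907, 3565, 2413 and 3739 CPM in lung BrM. Its groups overlapped and it was not called (log2 difference 0.11 ± 0.30, adjusted p = 0.8). Cdh5, the cadherin of endothelial junctions, rose (log2 difference 0.96 ± 0.28, adjusted p = 0.014), Tek, the TIE2 receptor, fell (-1.61 ± 0.20), and Kdr (-0.45) and Erg (-0.30) were not called. The summed level of 25 endothelial core genes was 21700 to 30500 CPM in lung BrM and 37400 to 38200 CPM in non-tumor brain (exact permutation test, two-sided, p = 0.0079, the smallest that 5 against 5 allows). Of the 25 genes 7 fell (28.0%, against 14.5% of all genes tested) and 2 rose (8.0%, against 20.4%). The other 16 were not called, and the median log2 difference was -0.13, so the sum does not stand for every member. In bulk samples fewer endothelial cells, less RNA per cell and lower levels of some genes cannot be told apart.

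Epithelial RNA, for which the sort was gated negative by EPCAM, was present in the lung libraries. Krt8, an epithelial keratin, stood at 0, 1.06, 0.545, 0 and 0.716 CPM in non-tumor brain and 828, 407, 169, 36.7 and 97 CPM in lung BrM. Every lung library lay above every non-tumor one, and they differed among themselves by more than 20-fold. The sum of 8 epithelial genes (Krt7, Krt8, Krt18, Krt19, Cdh1, Cldn3, Cldn4 and Cldn7) was 2250, 1310, 524, 93.4 and 240 CPM in lung BrM and at most 7.65 CPM in non-tumor brain (exact permutation p = 0.0079). The wider list of 24 epithelial markers summed to 335 to 2670 CPM in lung BrM and 881 to 1020 CPM in non-tumor brain, with 2 lung libraries below all non-tumor ones (exact permutation p = 0.54), and 13 of 22 tested rose and 1 fell. The gene that fell is Ocln, which endothelial cells express and which alone stood at 880, 813, 983, 818 and 906 CPM in non-tumor brain. Epcam itself stood at 0, 0.765, 0.0545, 0 and 0.191 CPM in non-tumor brain and 0.857, 1.82, 38.1, 0 and 0 CPM in lung BrM, with 1 high library, mouse 54957, and overlapping groups. The endothelial sum was lowest in the 2 libraries with the most epithelial RNA.

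**Figure D1:**
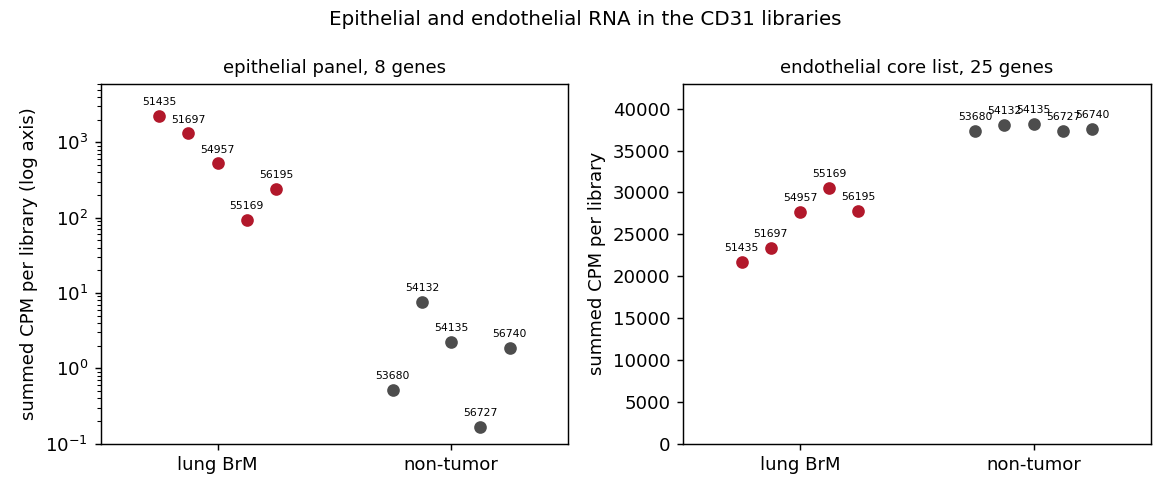
Summed CPM of 8 epithelial genes (left, log axis) and of 25 endothelial core genes (right, axis from 0) in each CD31 library, with mouse numbers. Each point is 1 library. The lung libraries run from 93.4 to 2250 CPM for the epithelial sum, against at most 7.65 CPM in non-tumor brain, and from 21700 to 30500 CPM for the endothelial sum, against 37400 to 38200 CPM.

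To keep apart genes whose level cancer cell RNA could give, a carry-over share was computed for each gene. The PDGFRβ-sorted library of the same mouse, in which the same epithelial genes summed to 5860 to 10300 CPM, served as the profile of cancer RNA. Scaled by the epithelial sum, it would make up 38.4% (mouse 51435), 15.6% (51697), 5.8% (54957), 1.1% (55169) and 2.32% (56195) of the CD31 libraries. Mouse 51697 has no PDGFRβ library and took the mean profile of the other 4. The share is the level this gives, in percent of the level observed over the 5 lung libraries, called low under 20%, middle from 20% to under 50% and high from 50%. PDGFRβ libraries also hold mural RNA, so the share is too high for genes of mural cells, and it can pass 100%.

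Of 14876 genes tested, 3032 (20.4%) rose and 2150 (14.5%) fell in lung BrM, 5182 (34.8%) in all, and the median log2 difference of all genes was -0.00. Of the rises, 2273 (15.3% of genes tested) had a low carry-over share, 445 (2.99%) a middle and 314 (2.11%) a high one. In a fit of the 10 libraries alone 2463 rose, 166 of them with a high share, and 1686 fell. In 2031 genes (13.7%) every lung library lay above every non-tumor library, and in 2447 (16.4%) below. With the estimated carry-over counts subtracted before the fit, 2069 of the 2273 low-share rises (91.0%) and 85 of the 314 high-share rises (27.1%) were still called. The subtraction uses the estimate that defines the classes, so this contrast follows from their construction and does not test them. In the library of mouse 55169, which had the least epithelial RNA, 94.8% of the low-share rises and 79.6% of the high-share rises lay above all non-tumor libraries. Of the falls, 95.5% lay below all non-tumor libraries there. This library is 1 of the 5 behind the calls, so these shares are raised by construction and do not test them. After subtraction 1668 of the 2150 falls were still called. Without the 2 lung libraries highest in epithelial RNA (chosen after seeing the data), 1851 low-share rises, 204 high-share rises and 1561 falls were still called.

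The column names carry a date whose meaning is not given. Only 1 of the 6 dates holds both groups, with 2 lung and 2 non-tumor libraries, and within it 192 genes rose and 88 fell. With the date as a covariate, 972 rose and 486 fell. Of the 5182 genes called, 5168 kept their direction with the covariate, and 4782 of the 4789 tested within the shared date did so. These genes were called from the same libraries, so this agreement is raised by construction and does not test the part of the date. The counts and the values of single genes below come from the fit without the date. Of 174 genes named in this text, 48 lost their call with the covariate and 106 within the shared date. The date was also fitted for 10 of the lists, whose counts with it are given beside them, and for the other lists the counts with the date are not given.

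**Figure D2:**
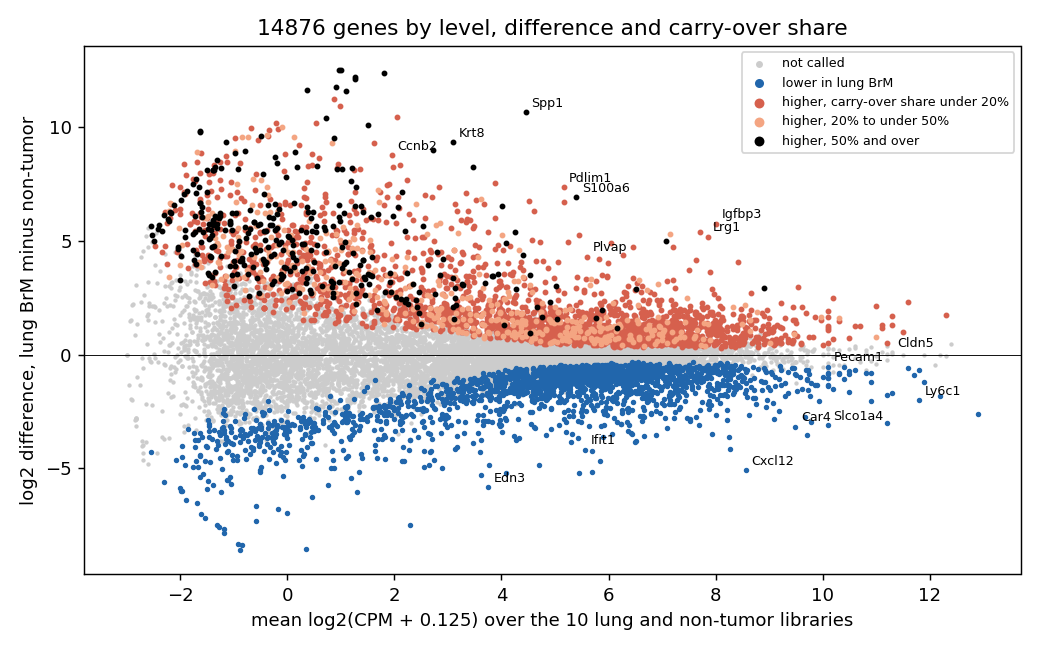
Log2 difference (lung BrM minus non-tumor) of 14876 genes against their mean log2(CPM + 0.125) over the 10 libraries. Each point is a gene, coloured by call and, for rises, by carry-over share; the 314 rises with a high share (black) have a median of 4.95 against 1.41 for those with a low share, with Spp1 at 10.66 and Krt8 at 9.36, while Pdlim1 (7.37) and Igfbp3 (5.77) have a low share.

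Genes of the blood-brain barrier were lower in lung BrM. Of 28 transport genes, 15 fell (53.6%, against 14.5% of all genes) and 2 rose, with a median log2 difference of -1.23 against -0.00 for all genes. Slco1a4, an organic anion transporter, stood at 3285, 3313, 3117, 3225 and 3515 CPM in non-tumor brain and 300, 191, 649, 436 and 324 CPM in lung BrM. The lowest non-tumor value was more than 4-fold above the highest lung value (log2 difference -3.11 ± 0.27, adjusted p = 3.7e-07). Slc19a3, the thiamine transporter (-3.82 ± 0.34), and the taurine transporter Slc6a6 (-3.52 ± 0.29) fell as well. Slc2a1, the glucose transporter GLUT1 and one of the most abundant transcripts of the sort, stood at 7515, 4885, 6680, 5620 and 5204 CPM in non-tumor brain and 2661, 1374, 3058, 2585 and 3142 CPM in lung BrM. All lung libraries lay below all non-tumor ones (log2 difference -1.22 ± 0.39, adjusted p = 0.022). The insulin receptor Insr rose (0.86 ± 0.21, overlapping groups), as did Trf, transferrin (5.01, carry-over share 55%). Mfsd2a, the lipid transporter that restrains transcytosis, stood at 772, 688, 768, 701 and 716 CPM in non-tumor brain and 448, 122, 727, 442 and 590 CPM in lung BrM and was not called (log2 difference -0.65 ± 0.32, adjusted p = 0.12), mouse 51697 being far below the other lung libraries. With the date as a covariate 8 transport genes fell and 1 rose, and within the shared date 5 fell and 1 rose. Placing mouse 54135 by its cell type label left 8 falls.

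Tight junction genes changed in both directions. Of 18 genes 7 fell (38.9%) and 3 rose (16.7%, under the 20.4% of all genes), with Cldn5 not called as above. Occludin, Ocln, stood at 880, 813, 983, 818 and 906 CPM in non-tumor brain and 149, 32.1, 208, 136 and 70.7 CPM in lung BrM. The highest lung value was under the lowest non-tumor value by more than 3-fold (log2 difference -2.89 ± 0.38, adjusted p = 2.3e-05). The junctional adhesion molecule Jam2 (-1.88 ± 0.23) and the scaffold Tjp1 (-1.49 ± 0.16) fell as well, while Jam3 rose (1.70 ± 0.29).

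Markers of brain capillaries fell in 9 of 13 cases (69.2%), with a median log2 difference of -1.83. Tfrc, Slc22a8 and Slco1c1 are also among the transport falls, so the counts of these lists are not separate. Cxcl12, the chemokine that brain capillaries secrete, stood at 2918, 2302, 2512, 2107 and 2496 CPM in non-tumor brain and 120, 26.2, 44.2, 136 and 36.9 CPM in lung BrM. The groups lay more than 15-fold apart at their nearest (log2 difference -5.08 ± 0.44, adjusted p = 3.4e-07). Car4, carbonic anhydrase 4 (-3.17 ± 0.45), Tgfbr3, betaglycan (-3.10 ± 0.56), and Slc22a8, an organic anion transporter (-2.82 ± 0.37), fell too. In the fit with the date 7 capillary genes fell, within the shared date 5, and with mouse 54135 by its label 6. Among 24 Wnt genes of the barrier there were 11 falls (45.8%) and 1 rise. The date as a covariate left 4 falls, the shared date 1, and the label of mouse 54135 4. The 11 falls without the date included Notum, a secreted Wnt inhibitor and target (-4.83 ± 0.84), Tnfrsf19 (-3.53 ± 0.51) and the Wnt7 coreceptor component Reck (-3.35 ± 0.38). Lef1, the nuclear effector of Wnt signals, fell by 1.65 on the log2 scale, and the inhibitor Dkk2 rose (1.98 ± 0.63, overlapping groups).

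Genes of veins and arteries differed as follows. Of 15 venous genes 6 rose (40.0%, against 20.4% of all genes) and 1 fell, all 6 with a low carry-over share, and of 18 arterial genes 5 rose (27.8%) and 6 fell (33.3%, against 14.5% of all genes). Lrg1, a secreted glycoprotein of veins, stood at 33.3, 48.5, 21, 45 and 55 CPM in non-tumor brain and 816, 1752, 912, 2137 and 1820 CPM in lung BrM. Lung values exceeded non-tumor values by more than 14-fold at their nearest (log2 difference 5.20 ± 0.49, adjusted p = 9.2e-07). Selp, P-selectin (5.58 ± 0.54), Aplnr, the apelin receptor (4.19 ± 0.31), Ackr1, the chemokine scavenger of venules (2.25 ± 0.52), and Vwf, von Willebrand factor (1.25 ± 0.28), rose with every lung library above every non-tumor one. Of the arterial genes, Gkn3 (-5.31 ± 0.73), Alpl, alkaline phosphatase (-5.19 ± 1.07), and the kinase Bmx (-2.50 ± 0.47) fell, and Gja4, connexin 37, rose (2.28 ± 0.34).

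Genes of vesicles and fenestrae changed in both directions. Plvap, the diaphragm protein of fenestrae and caveolae that mature brain endothelium lacks, stood at 13.1, 8.88, 12.3, 11.5 and 17.7 CPM in non-tumor brain and 111, 282, 51.6, 579 and 246 CPM in lung BrM. It was low in every non-tumor library and higher, over an 11-fold range, in every lung library (log2 difference 4.32 ± 0.53, adjusted p = 1.2e-05). Gpihbp1, the lipase anchor of peripheral capillaries, rose (4.94 ± 0.67), and so did Cavin3 (1.89 ± 0.26). The caveolar coat genes Cav1 (-1.54 ± 0.20), Cav2 (-2.16 ± 0.26) and Cavin2 (-2.74 ± 0.20) and the dynamin gene Dnm2 (-1.29 ± 0.23) fell. In all, 3 of 14 rose (21.4%, near the 20.4% of all genes) and 5 fell (35.7%, against 14.5%).

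**Figure D3:**
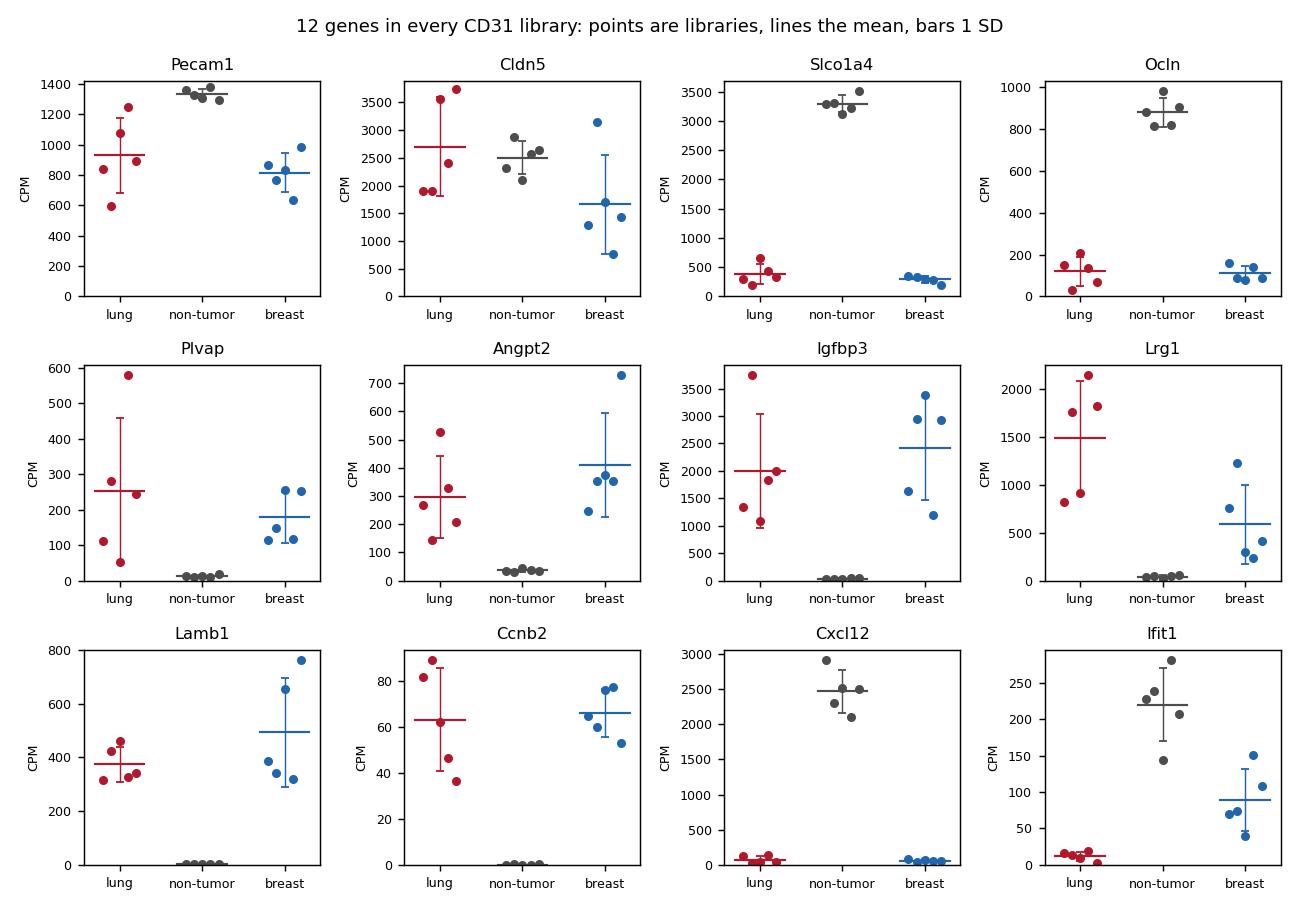
CPM of 12 genes in each of the 15 CD31 libraries (lung BrM, non-tumor, breast BrM; 5 each), linear axes from 0. Points are libraries, horizontal lines group means and bars 1 SD, cut at 0. Slco1a4, Ocln, Cxcl12 and Ifit1 are lower in all lung than in all non-tumor libraries, Plvap, Angpt2, Igfbp3, Lrg1, Lamb1 and Ccnb2 are higher, and Cldn5 overlaps.

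Sprouting genes rose together. Of 30 tip cell genes, those of the cells that lead a vessel sprout, 22 rose (73.3%) and 0 fell in edgeR (1 at an unadjusted p under 0.05, 1 called in DESeq2), with a median log2 difference of 2.00. 21 of the 22 had a low carry-over share. With the date as a covariate 17 rose, and within the shared date 11 rose. Igfbp3, an insulin-like growth factor binding protein, stood at 37.1, 29.9, 33.6, 39.8 and 43 CPM in non-tumor brain and 1346, 3738, 1077, 1836 and 1989 CPM in lung BrM. The groups lay 25-fold apart at their nearest (log2 difference 5.77 ± 0.39, adjusted p = 2.3e-08). Cxcr4, the receptor for Cxcl12, stood at 0.0512, 0.235, 0.0545, 0.392 and 0.143 CPM in non-tumor brain and 14, 28.5, 23.7, 19 and 13.3 CPM in lung BrM, where the non-tumor libraries hold 16 counts in all (log2 difference 6.77 ± 0.59, adjusted p = 4.2e-07). Chst1, a keratan sulfotransferase, rose as well (6.62 ± 0.48).

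The angiopoietin and VEGF genes were read in full. Angpt2, the TIE2 antagonist released by activated endothelium, stood at 34, 31.8, 45, 38.9 and 33.8 CPM in non-tumor brain and 270, 146, 526, 327 and 208 CPM in lung BrM. Its lung values, all above the non-tumor ones, gave a 8.05-fold rise (log2 difference 3.01 ± 0.33, adjusted p = 4.3e-06). Its receptor gene Tek fell by 1.61 and the phosphatase Ptprb by 1.50 on the log2 scale, while Tie1 was not called (0.26 ± 0.20). Of the VEGF receptors, Flt1 fell (-1.75 ± 0.19), Flt4 rose (0.65 ± 0.17) and Kdr was not called. Of the coreceptors, Nrp2 rose (0.87 ± 0.24, overlapping groups) and Nrp1 was not called (-0.32 ± 0.27). Among the ligands, Pgf, placental growth factor, rose (4.25 ± 1.05) although mouse 56195 had none. Vegfa rose (3.12 ± 0.86) with a high carry-over share (69.4%). Vegfb (1.30 ± 0.52) and Vegfc (-0.58 ± 0.33) were not called. Angpt1 was too low to be tested, at 0 CPM in the lung libraries and 0.176 to 2.39 CPM in non-tumor brain.

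The extracellular matrix was the site of some of the largest rises. Of 18 basement membrane genes 12 rose (66.7%) and 2 fell, and all 12 rises had a low carry-over share. With the date as a covariate 12 rose, and within the shared date 10. Col4a1, Col4a2, Lamc1, Nid2, Hspg2 and Sparc are also among the tip cell rises, so the counts of these lists are not separate. Lamb1, the laminin β1 chain, stood at 3.43, 2.18, 3.11, 4.15 and 4.63 CPM in non-tumor brain and 315, 425, 463, 327 and 340 CPM in lung BrM. The 5 lung values were within 1.5-fold of each other and at least 68-fold above the highest non-tumor value (log2 difference 6.73 ± 0.32, adjusted p = 8.7e-10). The laminin chains Lamb2 (-1.71 ± 0.18) and Lamc3 (-3.74 ± 0.93) fell. Col15a1 (7.18 ± 0.89), Col18a1 (3.28 ± 0.33) and nidogen 1, Nid1 (2.66 ± 0.21), rose. Serpinh1, the collagen chaperone (2.00 ± 0.23), and Plod1, a collagen lysyl hydroxylase (1.43 ± 0.21), rose with them.

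Interstitial matrix genes, made mainly by fibroblasts and mural cells, rose mostly with a high carry-over share. Of 24 genes 15 rose (62.5%, against 20.4% of all genes) and 0 fell in edgeR (1 at an unadjusted p under 0.05, 1 called in DESeq2). After subtraction 5 were still called. Of the 15 rises, 12 had a high carry-over share. Those with a low share were Tgfbi, a matrix protein induced by TGFβ (9.32 ± 0.60; 7 counts in all of non-tumor brain), and Mmp14. Mmp14, the membrane-bound matrix metalloproteinase, stood at 0.615, 0.353, 1.09, 2.41 and 1.19 CPM in non-tumor brain and 171, 386, 177, 202 and 145 CPM in lung BrM. It had the largest low-share rise among genes with a mean log2 level of at least 3 and no overlap (log2 difference 7.57 ± 0.50, adjusted p = 2.3e-08, share 11.7%). Timp1, a metalloproteinase inhibitor, rose with a middle share (5.79 ± 0.49, 23.4%). Among integrins, the matrix receptors, 7 of 15 rose (46.7%) and 2 fell (13.3%, near the 14.5% of all genes). Itgb3 (4.14 ± 0.33), Itga5, of the fibronectin receptor (2.20 ± 0.21), and Itga4 (1.84 ± 0.26) rose, while Itga1 (-1.48 ± 0.21) and Itga6, of a laminin receptor (-0.89 ± 0.16), fell.

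The 10 largest low-share rises by the rule for named genes include Mmp14, Lamb1 and Chst1, given above. Pdlim1, an actin-associated adaptor, stood at 1.84, 1.76, 3.6, 2.69 and 4.25 CPM in non-tumor brain and 362, 454, 427, 406 and 698 CPM in lung BrM (log2 difference 7.37 ± 0.32, adjusted p = 5.9e-10, share 2.97%). Fscn1, the actin bundler fascin, stood at 2.41, 0.823, 2.62, 3.19 and 2 CPM in non-tumor brain and 196, 273, 249, 243 and 262 CPM in lung BrM (log2 difference 6.78 ± 0.33, adjusted p = 9.6e-10). In both, the lung libraries lay within 2-fold of each other and far above the non-tumor ones. Marcksl1, an actin-binding substrate of protein kinase C (6.31 ± 0.26), Cotl1, an F-actin binding protein (6.65 ± 0.37), C1qtnf6 (7.10 ± 0.56), Igfbp5 (6.79 ± 0.85) and the aggrecanase Adamts4 (6.32 ± 0.46) complete them.

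Cell cycle genes rose almost throughout. Of 30 mitosis genes 29 rose (96.7%), with a median log2 difference of 5.32, the highest of the endothelial and process lists. 22 had a low and 7 a middle carry-over share. Ccnb2 stood at 0.102, 0.176, 0.0545, 0.056 and 0.286 CPM in non-tumor brain and 81.9, 89.5, 62.2, 46.8 and 36.4 CPM in lung BrM, where the 13 non-tumor counts set the low side. All lung libraries lay above all non-tumor ones by more than 100-fold (log2 difference 8.77 ± 0.41, adjusted p = 8.7e-10, share 11.5%). Birc5, survivin (8.27 ± 0.48), and the kinase gene Aurkb (8.20 ± 0.77) rose similarly. Kif2c, a mitotic kinesin, had 3 counts in all of non-tumor brain and 1002 in lung BrM, a ratio of 403 (95% counting interval 138 to 1958). Pttg1, securin, was the 1 gene that fell (-1.16 ± 0.17). After subtraction 28 rose, with the date as a covariate 21, and within the shared date 6 of 28. With mouse 54135 by its cell type label 5 rose, and the median was 1.88.

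Of 31 DNA replication genes 21 rose (67.7%) and 0 fell in edgeR (0 at an unadjusted p under 0.05, 0 in DESeq2), with 13 low, 7 middle and 1 high share. The summed level was 896 to 1710 CPM in lung BrM and 492 to 559 CPM in non-tumor brain (exact permutation p = 0.0079). Ccne1, cyclin E1 (6.21 ± 0.88), the replication factor Mcm10 (5.16 ± 1.01), thymidine kinase Tk1 (4.45 ± 0.46) and Uhrf1 (3.26 ± 0.46) were among the largest of the low-share rises. The cancer line divides too, and the part of dividing non-endothelial cells beyond the carry-over estimate was not tested. In the fit with the date 9 rose, and within the shared date 1. With mouse 54135 by its label 6 rose, and the median was 1.13.

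**Figure D4:**
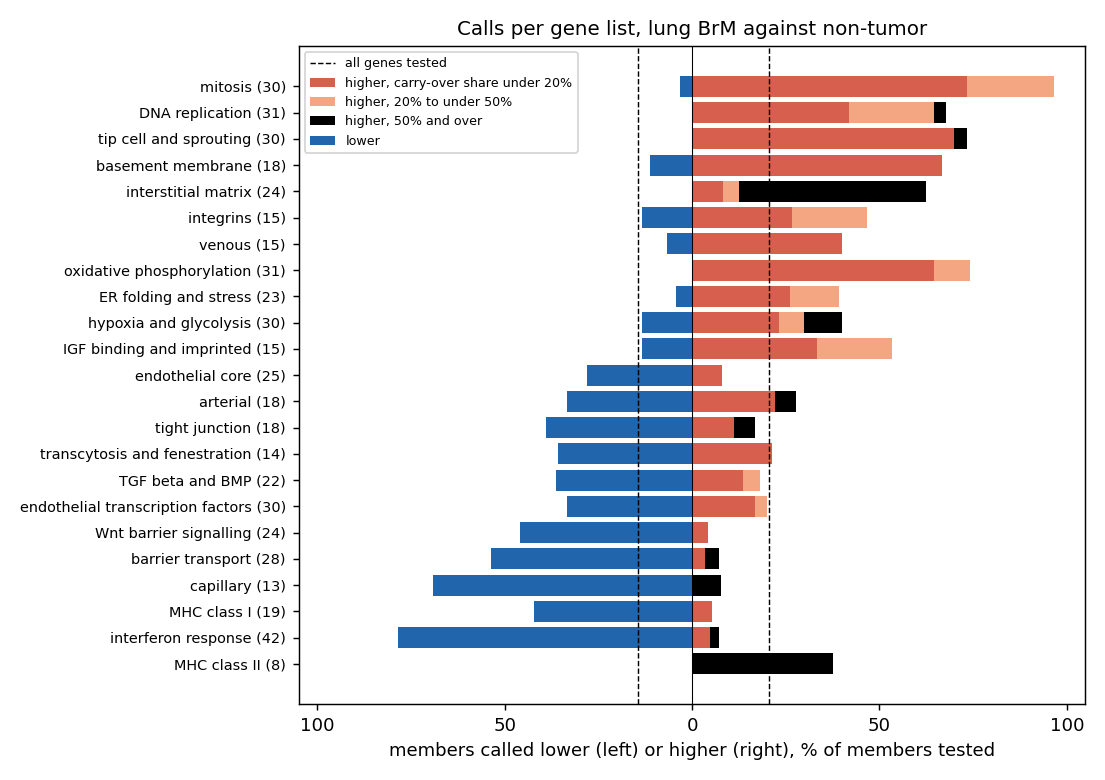
Share of tested members called lower (left) or higher (right) in lung BrM, in percent, for 23 gene lists with their number of members tested. Rises are split by carry-over share, and dashed lines give the 14.5% and 20.4% of all genes; mitosis reaches 96.7% higher and interferon response 78.6% lower, and the rises of interstitial matrix and MHC class II are mostly or wholly of a high share.

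Interferon response genes fell. Of 42 genes 33 fell (78.6%) and 3 rose, with a median log2 difference of -1.69. In 30 genes every lung library lay below every non-tumor library. Ifit1, which blocks viral RNA and carries the pair of elements shown above, stood at 228, 239, 144, 282 and 208 CPM in non-tumor brain and 16.4, 13.7, 8.9, 18.6 and 3.04 CPM in lung BrM. The 5 breast BrM libraries stood at 70.5, 73.5, 39.6, 151 and 108 CPM, between the groups except for the highest, which reached the non-tumor range. Ifit1 was thus lower in lung BrM than in non-tumor brain (log2 difference -4.18 ± 0.44, adjusted p = 2.7e-06) and than in breast BrM (log2 lung minus breast -2.87 ± 0.42, adjusted p = 0.0014). Oas2, a sensor of double-stranded RNA, stood at 36.1, 19.8, 36.8, 24.1 and 22 CPM in non-tumor brain and 4.78, 0, 1.64, 3.78 and 0 CPM in lung BrM, and at 37.6, 37.7, 40.4, 108 and 94.7 CPM in breast BrM (log2 lung minus breast -4.94 ± 0.85, adjusted p = 0.0047). All breast libraries lay above all non-tumor libraries, and 2 lung libraries had 0 CPM. Gbp5 (-3.50 ± 0.74), the RNA sensor Ifih1 (-3.06 ± 0.50) and Ifit2 (-2.85 ± 0.75) fell too. Irf8, a transcription factor of the same list better known from myeloid cells, rose (4.99 ± 0.52), as did Ifitm2 (1.04 ± 0.19).

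Against breast BrM, 30 of the 42 interferon genes were lower in lung BrM (71.4%, against 1.55% of all genes tested there) and 0 were higher in edgeR (0 at an unadjusted p under 0.05, 0 in DESeq2), with a median of -1.95 against -0.03 for all genes. Between breast BrM and non-tumor brain 10 of the same genes were higher and 6 lower in breast BrM, with a median of 0.07. The share of all genes called in that comparison is not given here, so these counts cannot be set against it. No date holds both lung and breast libraries, so tumor origin and date cannot be told apart by comparing them within a date. The fit with the date compares them only through non-tumor libraries that share a date with each. With the date as a covariate edgeR called 0 genes between lung and breast BrM (at an unadjusted p under 0.05, 493 higher and 462 lower, 30 of the lower ones interferon genes), and the median of the interferon genes was -2.72. When the cell type label instead of the title placed mouse 54135, 11 interferon genes fell against non-tumor brain and 1 was lower than in breast BrM. Within the date shared by lung BrM and non-tumor brain the median of these genes was -2.33, with 38 of 41 below 0 and 11 called lower, and the date as a covariate left 21 falls. Several members, such as those of the Ifit, Oas, Gbp and H2 families, have near copies, and reads may be split between them.

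**Figure D5:**
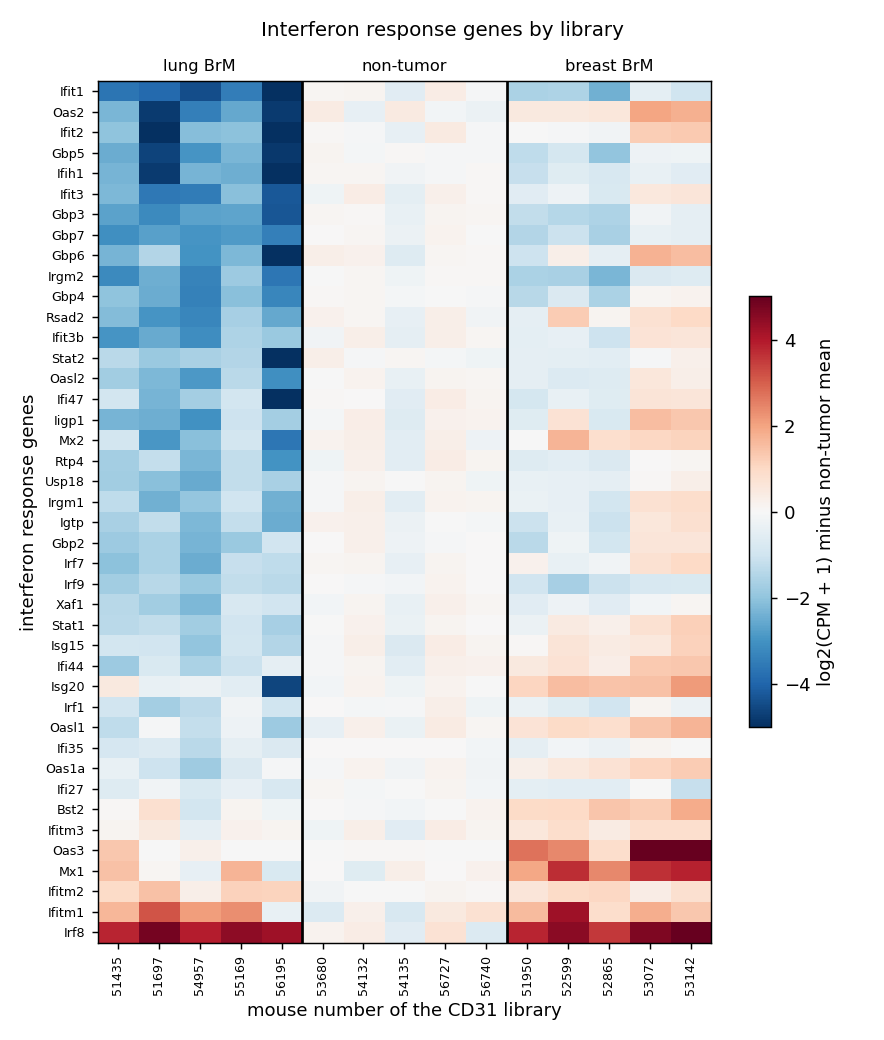
Log2(CPM + 1) of 42 interferon response genes in each CD31 library, minus the mean of the 5 non-tumor libraries. Rows are genes ordered by their mean in lung BrM and columns are libraries by mouse number; blue is lower and red higher than non-tumor brain, capped at 5. The lung columns are mostly blue, with Irf8 red, and the breast columns mixed.

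Antigen presentation genes fell in part. Of 19 MHC class I pathway genes 8 fell (42.1%, against 14.5% of all genes) and 1 rose. After subtraction of the carry-over 5 fell, and without the 2 lung libraries highest in epithelial RNA 3 fell. Against breast BrM 9 were lower (47.4%, against 1.55% of all genes). With the date as a covariate 2 fell against non-tumor brain and 0 were called against breast BrM in edgeR, within the shared date 2 fell, and with mouse 54135 by its label 1 fell and 1 was lower than in breast BrM. At an unadjusted p under 0.05, 10 were lower than in breast BrM with the date as a covariate. B2m, the invariant light chain, stood at 1508, 1489, 975, 2073 and 1695 CPM in non-tumor brain and 1129, 860, 535, 1343 and 576 CPM in lung BrM and at 1651, 2388, 1857, 2633 and 2949 CPM in breast BrM. Its lung values overlapped non-tumor brain but lay below all breast values (log2 difference -0.80 ± 0.26, adjusted p = 0.027; log2 lung minus breast -1.37 ± 0.27, adjusted p = 0.011). Nlrc5, the transactivator of class I genes, fell (log2 difference -2.00 ± 0.61, adjusted p = 0.018) and was lower than in breast BrM (-3.06, adjusted p = 0.016). H2-T23 did likewise (-1.93 against non-tumor, -1.35 against breast), and Calr, a chaperone of the class I complex, rose (0.95 ± 0.15). The class II genes Cd74 (3.96), H2-Aa (3.35) and H2-Ab1 (3.12) rose, each with a carry-over share above 100%. They are 3 of 8 tested (37.5%, against 20.4% of all genes).

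Among checkpoint genes, 5 of 16 rose (31.2%, against 20.4% of all genes) and 3 fell (18.8%, against 14.5%). Of the rises 3 had a low and 2 a high carry-over share. Cd276, which encodes the immune inhibitor B7-H3, stood at 0, 0.0588, 0, 0 and 0 CPM in non-tumor brain and 63.1, 72, 36.4, 45.9 and 1.14 CPM in lung BrM. With 1 count in all of non-tumor brain and 3328 in lung BrM the ratio was 4016 (95% counting interval 720 to 158657), with a low carry-over share (16.7%); mouse 56195 was far below the other lung libraries. Nectin2 (3.37 ± 0.21) and galectin 9, Lgals9 (0.52 ± 0.13), rose. Cd274, which encodes PD-L1, stood at 57.9, 69.7, 41.7, 63 and 48.7 CPM in non-tumor brain and 7.9, 9.5, 5.2, 10.3 and 0.38 CPM in lung BrM and fell (log2 difference -3.08 ± 0.57, adjusted p = 0.00062), and was lower than in breast BrM (-2.38, adjusted p = 0.033). Tnfsf10, the death ligand TRAIL, fell as well (-2.42 ± 0.33).

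Of 20 chemokines and cytokines tested 7 rose (35.0%) and 3 fell (15%, near the 14.5% of all genes), and 1 of the 7 rises had a low share, Cxcr4. Cxcl16 (2.46 ± 0.23, share 20.8%) and Cxcl10, a T cell attractant induced by interferon (1.79 ± 0.57, share 28.8%), rose, while Cx3cl1, fractalkine, fell (-1.75 ± 0.34). Cxcl10 was lower than in breast BrM (log2 lung minus breast -3.63 ± 0.59, adjusted p = 0.0031). Of the leukocyte adhesion genes 5 of 15 rose (33.3%, against 20.4% of all genes) and 3 fell (20%, against 14.5%). Besides Selp and Ackr1, E-selectin, Sele, rose (2.09 ± 0.58, overlapping groups). Vcam1, the integrin ligand, stood at 218, 320, 276, 333 and 381 CPM in non-tumor brain and 419, 189, 218, 112 and 56.4 CPM in lung BrM and was not called (log2 difference -0.62 ± 0.40, adjusted p = 0.24), with a share of 80.4%.

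Vasoactive and clotting genes changed in both directions. Of 20 vasoactive genes 6 rose (30.0%, against 20.4% of all genes) and 4 fell (20%, against 14.5%), all 6 rises with a low carry-over share. Of 24 complement and coagulation genes 11 rose (45.8%), 5 of them with a high share, and 5 fell (20.8%), and after subtraction 7 rose and 4 fell. Edn3, endothelin 3, stood at 191, 138, 177, 157 and 178 CPM in non-tumor brain and 5.94, 0, 1.3, 7.17 and 0.0633 CPM in lung BrM. It had the largest fall among genes with a mean log2 level of at least 3 and no overlap (log2 difference -5.83 ± 0.85, adjusted p = 7.2e-05). Sgpp2, a sphingosine phosphate phosphatase (-5.18 ± 0.71), and the receptor S1pr1 (-1.39 ± 0.19) fell, while Npr3, the natriuretic peptide clearance receptor (5.19 ± 0.59), and Ednrb, the endothelin B receptor (3.50 ± 0.48), rose. Procr, the protein C receptor, rose (1.70 ± 0.19), thrombomodulin, Thbd, fell (-0.97 ± 0.23), and so did Cd59a, a complement inhibitor (-2.10 ± 0.20). The other large falls were those of the anion exchanger family member Slc26a10 (-5.19), Cd83 (-4.85), Ndnf (-4.84), Sema3c, a guidance cue (-4.67), and Rad54b (-4.30).

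In growth factor signalling, 4 of 22 TGFβ and BMP genes rose (18.2%, near the 20.4% of all genes) and 8 fell (36.4%, against 14.5%). Bmp6 (3.23 ± 0.52), the effector Smad1 (2.76 ± 0.28) and Tgfb1 (1.89 ± 0.34) rose, and the binding protein Ltbp4 (-2.67 ± 0.25), Tgfb2 (-2.04 ± 0.24) and the receptor Bmpr2 (-1.47 ± 0.17) fell. Of 17 Notch genes 5 rose (29.4%, against 20.4% of all genes) and 4 fell (23.5%, against 14.5%). The feedback inhibitor Nrarp (4.07 ± 0.45) and Notch4 (1.59 ± 0.42) were higher and the target Hey1 lower (-1.27 ± 0.17). Of 15 IGF binding and imprinted genes 8 rose (53.3%, against 20.4% of all genes) and 2 fell (13.3%, near the 14.5% of all genes). Mest (4.64 ± 0.43) and Igfbp7 (2.72 ± 0.35) rose, and the receptor Igf1r fell (-2.63 ± 0.33). Of 30 endothelial transcription factors 6 rose (20%, near the share of all genes) and 10 fell (33.3%). Meox1 (2.27 ± 0.26) and Prdm1 (1.81 ± 0.22) rose, and Ebf1 (-2.53 ± 0.27) and Gata2 (-1.28 ± 0.18) fell. Of 26 immediate early genes 4 rose (15.4%, below the share of all genes) and 8 fell (30.8%). Myc rose (5.70 ± 0.46) with a middle share (29.8%), Fosl2 rose (1.35 ± 0.29) and Klf4 fell (-1.20 ± 0.33).

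Nuclear genes of oxidative phosphorylation rose in 23 of 31 cases (74.2%) by small amounts, and edgeR called 0 falls (1 at an unadjusted p under 0.05, 1 called in DESeq2), with a median log2 difference of 0.48. Uqcrq, a subunit of complex III, stood at 101, 128, 104, 137 and 110 CPM in non-tumor brain and 271, 409, 191, 201 and 336 CPM in lung BrM. The groups did not overlap (log2 difference 1.28 ± 0.23, adjusted p = 0.00051). Atp5d (0.99), Cox4i1 (0.97) and cytochrome c, Cycs (0.87), rose as well. After subtraction 17 rose, without the 2 lung libraries of highest epithelial RNA 12, with mouse 54135 by its label 13, and with the date as a covariate 1, with a median of 0.44. Of 30 hypoxia and glycolysis genes 12 rose (40.0%, against 20.4% of all genes) and 4 fell (13.3%, near the 14.5% of all genes). Of these rises 7 had a low, 2 a middle and 3 a high carry-over share. Car9, a hypoxia-induced carbonic anhydrase, was listed at 0 in all non-tumor libraries and was at least 209-fold higher (against 3 counts over the group). Pdk1 (1.41 ± 0.23) and phosphofructokinase, Pfkp (1.33 ± 0.17), rose, but Bnip3 (-2.78 ± 0.45) and Ndrg1 (-2.45 ± 0.56), which hypoxia induces in many cells, fell.

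The rises with a high carry-over share were led by Spp1, osteopontin, which stood at 0, 1.94, 1.31, 0.336 and 0.239 CPM in non-tumor brain and 3258, 917, 1195, 506 and 227 CPM in lung BrM. Mouse 51435, highest for the epithelial sum, was also highest for Spp1 (log2 difference 10.66 ± 1.53, adjusted p = 6e-05, share 144%). Krt8 (share 112%), Krt18 (8.26, 94.6%), S100a6 (6.94, 71.5%) and galectin 1, Lgals1 (6.54, 93.8%), complete the 5 largest. Krt8 and Krt18 are among the 8 genes that set the scale, so their shares come out near 100% by construction. In mouse 55169, S100a6 was at 120 CPM and Lgals1 at 58.4 CPM, still above the highest non-tumor values of 8.34 and 2.82 CPM. Both were higher than in breast BrM (3.07, adjusted p = 0.0083; 2.92, adjusted p = 0.0044). Of 11 gut and liver epithelial genes tested 7 rose (63.6%, against 20.4% of all genes), 5 with a high share. Against breast BrM 6 were higher (54.5%, against 0.578% of all genes). Apob, of lipoprotein particles, stood at 0, 0, 0.0545, 0 and 0 CPM in non-tumor brain and 193, 39.2, 71.4, 1.92 and 11.3 CPM in lung BrM, with a carry-over share of 88% (log2 lung minus breast 11.07 ± 1.29, adjusted p = 0.00024). Apoa1 was listed at 0 in all non-tumor libraries and was at least 684-fold higher, with a share of 350%.

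Between lung and breast BrM, 86 genes (0.578%) were higher and 231 (1.55%) lower in lung BrM, 317 (2.13%) in all. Of the 30 tip cell, 18 basement membrane, 30 mitosis, 31 replication, 13 capillary and 18 tight junction genes, edgeR called 0 between them, which does not show that they were alike. At an unadjusted p under 0.05 there were 3, 1, 1, 1, 3 and 2 in these lists, and DESeq2 called 1, 0, 0, 1, 3 and 1. For Igfbp3 the difference was -0.27 (adjusted p = 0.75) and for Slco1a4 0.38 (adjusted p = 0.52). Among low-share differences upward were those of Syk, a signalling kinase (log2 lung minus breast 2.18 ± 0.47, adjusted p = 0.021), Myo19, a mitochondrial myosin (1.10), and Lpcat4 (1.03). Csn3, a milk casein, stood at 2201, 235, 795, 9005 and 1047 CPM in breast BrM and at no more than 2.78 CPM in lung BrM (log2 lung minus breast -10.60 ± 1.68, adjusted p = 0.0026), and Lcn2, lipocalin 2, was lower in lung BrM (-3.68, adjusted p = 0.0027). Trf was also lower (-2.96, adjusted p = 0.044).

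Markers of other cells differed between the groups in places. Ptprc, which encodes CD45, reached 3.01 CPM and Itgam, which encodes CD11B, 3.08 CPM in a lung library. The sum of 20 microglia and macrophage markers was 194 to 848 CPM (median 237) in lung BrM and 68.1 to 139 CPM in non-tumor brain (exact permutation p = 0.0079). Of 15 tested 8 rose (53.3%, against 20.4% of all genes). Lyz2 stood at 1.79, 4.35, 4.2, 7.17 and 1.24 CPM in non-tumor brain and 5.88, 46.7, 415, 42.9 and 19.2 CPM in lung BrM, C1qb at 0.0512, 0.647, 0.218, 0.56 and 0.143 CPM in non-tumor brain and 5.08, 8.31, 62.4, 3.83 and 0 CPM in lung BrM, and C1qa had 2 counts in all of non-tumor brain. Mouse 54957 was the highest for all 3. Of 13 pericyte markers 3 rose (23.1%) and 2 fell (15.4%), near the 20.4% and 14.5% of all genes. Of the rises 1 had a middle and 2 a high carry-over share, and the markers that fell are not reported singly here. Pericyte markers summed to 26.4 to 244 CPM in lung BrM and 17.7 to 47.6 CPM in non-tumor brain (exact permutation p = 0.071). Kcnj8 stood at 0.307, 0.941, 0.436, 0.112 and 0.143 CPM in non-tumor brain and 1.96, 80.9, 10.5, 41.4 and 15.4 CPM in lung BrM and Abcc9 at 0.461, 0.353, 0.218, 0.728 and 1.05 CPM in non-tumor brain and 9.06, 112, 15.5, 50.5 and 10.8 CPM in lung BrM, both highest in mouse 51697, while Pdgfrb did not exceed 14.2 CPM in a lung library. Kcnj8 was higher than in breast BrM (4.02, adjusted p = 0.013), and 1 other pericyte marker was lower than in breast BrM.

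Fibroblast markers summed to 5.08 to 76 CPM in lung BrM and 2.94 to 6.16 CPM in non-tumor brain. Astrocyte markers summed to 289 to 641 against 176 to 206 CPM, with Gja1, connexin 43, which endothelial cells can express, the 1 of 8 tested that rose (1.72 ± 0.22). Slc1a2 and Slc1a3, glutamate transporters of astrocytes, fell, and the median log2 difference of the list was -1.03. Neuron markers summed to 9.31 to 46.4 against 50.8 to 86 CPM, and Slc17a7 and Dlx6os1 were at 0 in all 10 libraries. Of 6 neuron markers tested 2 rose (33.3%, Rbfox3 and Tubb3) and 2 fell (33.3%, Stmn2 and Gad1), with a median of -0.05. Over all genes 20.4% rose and 14.5% fell. Lung epithelial markers summed to 157 to 708 CPM in lung BrM and 108 to 147 CPM in non-tumor brain, with Nkx2-1 at 0 in all 10 libraries. Sftpc stood at 3.18, 213, 0.137, 6.35 and 20.4 CPM and Scgb1a1 at 4.84, 273, 0.548, 6.52 and 11.6 CPM in lung BrM, both high in mouse 51697 and at no more than 2.02 and 1.62 CPM in non-tumor brain. The part of these cells in the differences above was not tested, beyond the carry-over share for cancer RNA.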

How the data were processed

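RNA of cells sorted by FACS was amplified by SMART-Seq chemistry for low input and made into Nextera XT libraries, per the labels' protocols. Per the submitters' processing notes, the tools named are STAR 2.7.9a, RSEM 1.3.3, edgeR 3.36.0 and limma 3.50.3, with mm10. The annotation release is not given in the sources used here, so no gene coordinates are printed. The authors deposited expected counts, which were rounded to whole numbers, and log2 normalised counts, used only in an alternative test; the authors' FPKM tables were not used. Reads carry no molecular identifiers and no strand is stated, so intervals cover counting error only and antisense partners or near copies cannot be told apart.

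Libraries were grouped by title. The 15 CD31 libraries were fitted together in edgeR 4.0.16 (R 4.3.3; filterByExpr, TMM, robust quasi-likelihood, Benjamini-Hochberg adjusted p under 0.05). Of 53647 gene IDs 52093 matched a symbol. On simulated data with 14449 genes, 24%, 60%, 78% and 90% of genes changed 2-, 4-, 16- and 64-fold were recovered. Each library comes from its own mouse or pair of mice, by the mouse numbers in the labels. Alternatives included DESeq2 1.42.0, limma 3.58.1, other scalings and filters, the date, each library left out, and carry-over subtraction. Genes named are Pecam1, Cldn5, Plvap, Angpt2, Mfsd2a, Vcam1, Cd276, Krt8 and Epcam, and, at a mean log2 CPM of at least 3 without overlap, the 10 largest low-share rises, 5 largest high-share rises and 10 largest falls. To these come up to 4 called members per list and direction, all angiopoietin and VEGF genes, and 5 differences from breast BrM in each direction. The rule passes over unnamed gene models, pseudogenes, antigen receptor segments and genes of the mitochondrial genome. Some genes that the rule would name are not reported here. Lef1, Ptprc, Itgam, Pdgfrb, Slc1a2, Slc1a3, Rbfox3, Tubb3, Stmn2 and Gad1 are given beside the rule, chosen after their values were seen. The members and lists were chosen with earlier results of these data known.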

Additional observations from a re-analysis of the deposited data

Results flagged for a closer look

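In 31 of 367 groups of 5 libraries tested, the highest or lowest library stood apart from the other 4 by Dixon's test (critical value 0.71). Chance alone gives about 1 in 20 groups. In lung BrM, mouse 51697 was lowest of 5 for Mfsd2a at 122, Cav2 at 74.2, Reck at 5.38, Cx3cl1 at 29, Tnfsf10 at 6.57 and Slc2a1 at 1374 CPM. In lung BrM, mouse 56195 was lowest of 5 for Cd276 at 1.14, Ackr1 at 165, Pgf at 0, Tnfrsf19 at 3.8, Cd274 at 0.38, Nlrc5 at 0.127 and Klf4 at 39.3 CPM. In lung BrM, mouse 54957 was highest of 5 for Epcam at 38.1, Chst1 at 247, C1qa at 15.5 and microglia and macrophage markers (summed) at 848 CPM. In non-tumor brain, mouse 54132 was highest of 5 for Krt18 at 4.53, Csn3 at 62.6 and granulocyte markers (summed) at 1.94 CPM. In non-tumor brain, mouse 56740 was highest of 5 for Vwf at 1392 CPM. In non-tumor brain, mouse 54135 was lowest of 5 for Tgfbr3 at 151, Slc22a8 at 1275, Vegfc at 21.3 and Nectin2 at 21.3 CPM. In lung BrM, mouse 51697 was highest of 5 for Notch4 at 219 and lung epithelial markers (summed) at 708 CPM. In non-tumor brain, mouse 53680 was lowest of 5 for Bmpr2 at 381 CPM. In lung BrM, mouse 51435 was highest of 5 for DNA replication (summed) at 1710 CPM. In non-tumor brain, mouse 54135 was highest of 5 for DNA replication (summed) at 559 CPM. In lung BrM, mouse 56195 was highest of 5 for smooth muscle markers (summed) at 682 CPM.

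The lung and breast BrM libraries differed, in edgeR's test of the difference with adjusted p under 0.05, for 20 of the genes named. Higher in lung BrM, as log2 lung minus breast, were S100a6 (3.07), Lgals1 (2.92), Kcnj8 (4.02), Apob (11.07), Apoa1 (7.57), Syk (2.18), Myo19 (1.10) and Lpcat4 (1.03). Lower were Trf (-2.96), Cxcl10 (-3.63), Cd274 (-2.38), Nlrc5 (-3.06), H2-T23 (-1.35), B2m (-1.37), Ifit1 (-2.87), Oas2 (-4.94), Ifih1 (-2.37), Ifit2 (-3.46), Csn3 (-10.60) and Lcn2 (-3.68). Tumor origin and date cannot be told apart in these differences.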

How the results depend on the processing

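No paired analysis was possible because the groups compared share no mouse. Against 3032 genes higher, 2150 lower, 2273 higher with a low and 314 with a high carry-over share, the date as a covariate gave 972, 486, 798 and 63, and the shared date alone 192, 88, 162 and 15. With mouse 54135 by its cell type label 1809 rose, 1191 fell and 103 rises had a high share. High-share rises numbered 166 in the fit of the 10 libraries, 85 after subtraction, 163 in limma-voom and 515 without the libraries of 2 mice. Falls numbered 3424 in limma-voom and 1358 at an absolute log2 difference of at least 1. Leaving out 1 library gave 2636 to 3469 higher, 1651 to 2770 lower, 1981 to 2463 low-share and 253 to 439 high-share rises.

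Against 86 genes higher and 231 lower in lung than breast BrM, DESeq2 gave 315 and 557, the date as a covariate 0 and 0, and mouse 54135 by its label 18 and 45. Genes higher numbered 40 after subtraction, 218 without the libraries of 2 mice and 135 without the 2 libraries highest in epithelial RNA (chosen after seeing the data). Genes lower numbered 348 in limma-trend and 392 in limma-voom. Leaving out 1 library gave 95 to 149 higher and 231 to 345 lower; the higher count was 147 without mouse 51697 and 149 without mouse 56195. The share of calls that were higher was 58.5%, against 42.2% in limma-voom and 49.2% in limma-trend. The median of all genes moved to -0.25 in limma-voom and -0.11 in the shared date. The cause was not tested.

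Reversed values were those of Cldn5 (-0.00 without mouse 54957, -0.04 without mouse 56195, -0.03 without the libraries of 2 mice; range -0.04 to 0.25 with 1 library left out), Kcnj8 (-2.53) and Abcc9 (-1.14) with mouse 54135 by its label, and Csn3 (1.08 with the date as a covariate, 1.10 in the shared date, 0.64 without mouse 54132; range -3.26 to 0.64 with 1 library left out). Of 174 genes named, 48 lost their call with the date as a covariate, 106 within the shared date and 48 with mouse 54135 by its label. Depth limits genes with few non-tumor counts, such as Cd276 and Apob.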
